A study of Mus musculus with 44 samples.

Results

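Hyaluronan is made, cut and held in place by the products of the 10 genes described here, which were taken by name from the deposited count table: Has1, Has2, Has3, Hyal1, Hyal2, Cemip, Cd44, Vcan, Tnfaip6 and Prg4. They are 10 of its 55486 genes, and all 10 passed the filter on low counts, in a fit of 16601 genes. Hyaluronan is a long, unsulfated sugar chain that synthases in the plasma membrane extend straight into the space outside the cell, where hyaluronidases and other factors shorten it and where receptors and matrix proteins bind it. Fibroblasts are a main source of it in connective tissue, including the stroma of the mammary gland. The comparisons ask whether these genes differed between fibroblasts with and without surface CD26, between mammary tumors and control tissue, and between fibroblasts with and without a history of En1 expression.

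All recipients were EN1-Cre;mTmG mice, bred from purchased EN1-Cre mice by a short backcross to mTmG mice of FVB/n background. The tumor models were on an FVB/n background. In the recipients, cells that have expressed Cre from En1, and their descendants, exchange membrane tdTomato for membrane GFP. Small pieces of donor mammary tissue from young mice were placed into the 4th fat pads of these recipients without clearing them, so that the host gland and its fibroblasts were kept. WB1P donors were WapCre;Brca1F/F;Trp53F/F, and WB1P-Myc donors carried Col1a1invCAG-Myc-IRES-Luc as well. Control recipients received control mammary tissue, and their libraries are labelled wildtype. As donors of control tissue for such recipients the study names Cdh1F/F;PtenF/F mice that were WapCre-negative. Tumors, which the series record describes as end-stage, and control tissue of matched age were digested with collagenase, and cells negative for EpCAM, CD49f, CD31 and CD45 were sorted by CD26 and by the En1 reporter into 4 populations for stranded mRNA libraries.

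The table held 44 libraries of 13 mice: 12 libraries of 3 control mice, 16 of 5 WB1P mice and 16 of 5 WB1P-Myc mice. Control libraries carry a pair of numbers (82/83, 49/52 and 44/46), and each pair was counted as 1 mouse because the labels do not say whether it is a pool. WB1P mouse 12 carries the mark R4 in its labels, without a stated meaning. The WB1P-Myc mice 23 and 69 carry the mark 8x8, whose meaning the labels do not give. The study's methods use this size, in mm, for advanced tumors of both models, a stage before the end stage. The labels do not say that 8x8 is a size, so the stage of these tumors cannot be told from the labels. A figure legend of the study counts 5 WB1P and 4 WB1P-Myc mice with end-stage tumors, while the table holds 5 WB1P-Myc mice. Calls that change without the 2 mice marked 8x8 are named with the genes. Counts of the libraries of 1 mouse and CD26 class were added, which gave 25 values in 6 groups: 3 and 3 for CD26− and CD26+ cells in control, 5 and 4 in WB1P and 5 and 5 in WB1P-Myc. Of the 25, 6 held 1 library and not an En1+ and En1− pair, all of them in tumors: CD26− cells of mice 10 and 21, CD26+ cells of mice 12 and 67, and both classes of mouse 95. Values below are CPM on library sizes scaled by TMM, and they are listed in the order 82/83, 49/52 and 44/46 for control, 10, 93, 12, 14 and 35 for WB1P (mouse 10 gave no CD26+ library) and 21, 67, 95, 23 and 69 for WB1P-Myc. A gene was called when its p from edgeR's quasi-likelihood test, adjusted over the genes tested by the method of Benjamini and Hochberg, was under 0.05. A number in brackets after another setting is the adjusted p that it gave, and spans over the alternatives are spans of adjusted p. The setting with single libraries as the unit counts the En1+ and En1− libraries of 1 mouse as separate replicates. They share a mouse, so a call gained only there does not rest on more mice. Library totals were about 11483500 to 15240300 counts in control, 5790600 to 15155500 in WB1P and 9697670 to 15055700 in WB1P-Myc.

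The sort was checked on the genes it rests on. Dpp4, which encodes CD26, lay at 1.74 to 6.897 CPM in CD26− and 264 to 804 CPM in CD26+ cells of control tissue, at 0.62 to 8.897 and 233 to 536 CPM in WB1P, and at 2.21 to 15.3 and 292 to 612 CPM in WB1P-Myc. The ranges did not touch, and Dpp4 was higher in CD26+ cells of control (log2 fold change 6.75 ± 0.84 (SE), edgeR adjusted p = 2.79e-05). It was so in WB1P (log2 fold change 6.36 ± 0.65 (SE), edgeR adjusted p = 6.46e-07) and in WB1P-Myc (log2 fold change 5.74 ± 0.62 (SE), edgeR adjusted p = 9.14e-07). En1 itself, whose past activity the reporter marks, was higher in the En1+ than in the En1− library in 19 of 19 pairs from the same mouse and CD26 class. Across all genes tested the En1 difference was not called (log2 fold change 0.95 ± 0.26 (SE), edgeR adjusted p = 0.413 in CD26− cells, log2 fold change 0.87 ± 0.27 (SE), edgeR adjusted p = 0.999999 in CD26+ cells). It passed in both with mouse as a fixed block (1.95e-05 and 9.89e-06).

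Markers of fibroblasts and of cells the gate could have let through were summed as CPM for each sum. All 7 fibroblast markers (Pdgfra, Pdgfrb, Col1a1, Col1a2, Col3a1, Dcn, Lum) were counted in every sum, with summed levels of 31922 to 90161 CPM and Col3a1 the most abundant by CPM. The 7 pericyte markers, with Rgs5 the most abundant, summed to 203, 369.7 and 215 CPM in CD26− and 167, 189 and 179.6 CPM in CD26+ cells of control mice. In tumors the same 7 pericyte markers summed to 5326, 2034, 2449, 1829.7 and 2619 CPM in CD26− cells of WB1P and 9155, 3099.5, 4222, 4270.4 and 2368 CPM in those of WB1P-Myc, against 393, 181, 169 and 293 CPM and 270.4, 310.0, 198, 155 and 272 CPM in CD26+ cells. The CD26− cells of every tumor thus lay above every control and every CD26+ value of this list. The 5 smooth muscle markers (Smtn the most abundant) did so too, at 345 to 652 CPM in WB1P and 291 to 637 CPM in WB1P-Myc CD26− cells against 81.2 to 175.9 CPM in the other sums.

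Further lists are given as ranges of the summed CPM in the order CD26− and CD26+ of control, of WB1P and of WB1P-Myc. The 7 epithelial markers (Krt8 the most abundant) ran 25.98 to 63.7, 41.8 to 80.7, 53.6 to 187, 20.02 to 134, 17.9 to 112 and 5.04 to 72.4 CPM. The 8 immune markers (Cd3e the most abundant) ran 24.2 to 36.9, 23.5 to 35.6, 22.9 to 157, 72.1 to 152, 28.5 to 148 and 23.7 to 264 CPM. Tested singly in CD26+ against CD26− cells, the 8 gave 0 higher in control, 1 in WB1P and 1 in WB1P-Myc, and 0 lower. Their median log2 fold changes were -0.51, -0.65 and -1.11. The 6 endothelial markers (Tek the most abundant) ran 35.8 to 56.1, 183 to 515, 20.7 to 24.4, 73.5 to 173, 17.4 to 75.2 and 105 to 194 CPM and followed Tek, while the 6 tested singly gave, in CD26+ against CD26− cells, 1 higher and 0 lower in control, 2 higher and 2 lower in WB1P and 2 higher and 3 lower in WB1P-Myc, at median log2 fold changes of -0.38, -0.06 and -0.91. The 4 adipocyte markers (Fabp4) ran 61.3 to 111, 41.9 to 84.8, 7.205 to 69.3, 6.17 to 10.8, 24.6 to 146 and 6.78 to 35.1 CPM. The 4 mesothelial markers ran 0.265 to 1.204, 0.944 to 1.66, 33.00 to 42.1, 20.1 to 37.6, 12.1 to 34.1 and 6.998 to 46.1 CPM, mostly Wt1 in tumors, and Msln, Upk3b and Lrrn4 were counted in 16, 13 and 3 of 25 sums. The 3 markers of dividing cells (Mki67) ran 3.83 to 38.2, 2.53 to 86.8, 112 to 273, 114 to 284, 158 to 294 and 113 to 321 CPM, and each of these 3 lay higher in every tumor than in every control. None of the markers in these lists was at 0 in all 25 sums, though Adgre1, Adipoq, Cidec, Msln, Upk3b and Lrrn4 averaged under 1 CPM. The part of any of these cell types in the differences described below was not tested.

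Control mouse 49/52 stood apart from the other two. Its markers of dividing cells summed to 3.83 and 2.53 CPM, against 33.7 to 86.8 CPM in 82/83 and 44/46, and its Vcan and Hyal2 levels were the lowest and the highest of the control mice in both CD26 classes. Calls that change without this mouse are named with the genes. Counts come from bulk RNA of sorted cells, in which fewer cells of a type and less RNA per cell cannot be told apart.

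Per kilobase of exon, mean levels of the 10 genes spanned more than 3 orders of magnitude, with Tnfaip6 the highest in all 6 groups. In CD26− cells of control tissue Tnfaip6 averaged 609.8 ± 141 CPM per kb (SD, n = 3), followed by Has1 at 169 ± 29.8, Vcan at 65.5 ± 42.6, Has2 at 28.4 ± 8.12 and Cd44 at 26.4 ± 6.88 CPM per kb. Has2 and Cd44 lay within each other's SD. Hyal2 averaged 6.09 ± 2.69, Prg4 1.66 ± 0.81, Hyal1 0.689 ± 0.172, Has3 0.314 ± 0.0469 and Cemip 0.124 ± 0.0695 CPM per kb. In CD26+ cells of WB1P tumors the order per kb was Tnfaip6 (1107 ± 279), Has1 (431 ± 87.7), Prg4 (242 ± 66.9), Cd44 (209 ± 149.5), Vcan (124 ± 61.3), Has2 (94.6 ± 32.1), Cemip (9.62 ± 3.41), Hyal2 (3.93 ± 0.856), Hyal1 (0.454 ± 0.18) and Has3 (0.188 ± 0.0824 CPM per kb, n = 4). Of the 3 synthases, Has1 was the highest per kb and Has3 the lowest in all 6 groups.

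**Figure D1:**
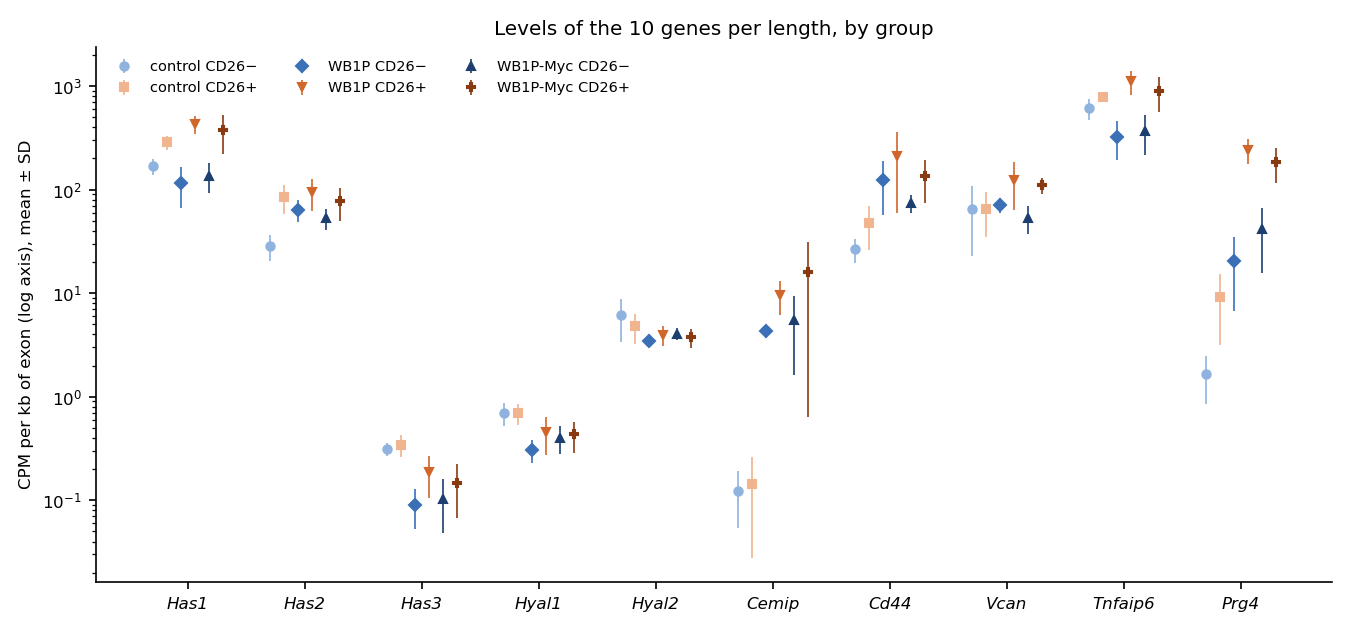
Mean level of each gene in CPM per kilobase of exon (log axis) in the 6 groups, with bars for the SD over mice (n = 3, 3, 5, 4, 5 and 5). Tnfaip6 averaged 369 CPM per kb in CD26− cells of WB1P-Myc, while Has3 averaged 0.104.

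The first comparison set CD26+ against CD26− cells within each tissue. Every called gene was higher in CD26+ cells: 1 of 10 in control (Has2), 3 of 10 in WB1P (Has1, Tnfaip6 and Prg4) and 4 of 10 in WB1P-Myc (Has1, Tnfaip6, Prg4 and Vcan). Of all genes tested, 4.13% were called in control (2.65% higher in CD26+ cells), 25.9% in WB1P (13% higher) and 20% in WB1P-Myc (9.28% higher). The median log2 fold change of the 10 genes against that of all genes was 0.28 against -0.02 in control, 0.92 against 0.01 in WB1P and 0.95 against -0.01 in WB1P-Myc. Within the 12 mice that gave both classes, Has1, Has2, Cd44, Tnfaip6 and Prg4 were higher in CD26+ cells in 12 of 12, Cemip in 10, Has3, Hyal1 and Vcan in 9 and Hyal2 in 4. How many of all genes were higher in 12 of 12 mice is not given here. These counts therefore cannot be read as particular to the 10 genes. The main fit has no term for mouse and so takes the 2 classes of a mouse as independent. Their deviations from group means correlated (median r 0.444, 12 pairs). A gene not called by that fit may still differ within mice. With mouse as a fixed block, 3 of 10 were called in control, 7 in WB1P and 7 in WB1P-Myc, beside 11.4%, 35% and 32.1% of all genes. The control count was 0 without control mouse 49/52, 0 without 44/46 and 2 without WB1P-Myc mouse 23. The shares of all genes called in those fits are not given here, so these moves cannot be read as particular to the 10 genes.

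The second comparison set tumors against control tissue within each CD26 class. In CD26− cells of WB1P tumors 8 of 10 genes were called: Has2, Cemip, Cd44 and Prg4 were higher, and Has3, Hyal1, Hyal2 and Tnfaip6 lower. In CD26− cells of WB1P-Myc tumors 5 were called, with Has2, Cemip, Cd44 and Prg4 higher and Has3 lower. In CD26+ cells the called genes were Cemip, Cd44 and Prg4 in both tumors, all higher. Of all genes tested, 35.4% were called in WB1P CD26− cells (17.6% higher, 17.8% lower), 33.5% in WB1P CD26+ cells (17.4% higher), 36.5% in WB1P-Myc CD26− cells (19.1% higher, 17.4% lower) and 34.6% in WB1P-Myc CD26+ cells (17.4% higher). Medians of the 10 genes against all genes, in the same order, were -0.22 against 0.00, 0.55 against 0.00, -0.30 against 0.02 and 0.29 against -0.01. The comparisons share their control mice, and without mouse 49/52 the counts in CD26− cells were 5 in WB1P and 2 in WB1P-Myc. Counts of all genes without this mouse are not given here, so the drop cannot be read as particular to the 10 genes.

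**Figure D2:**
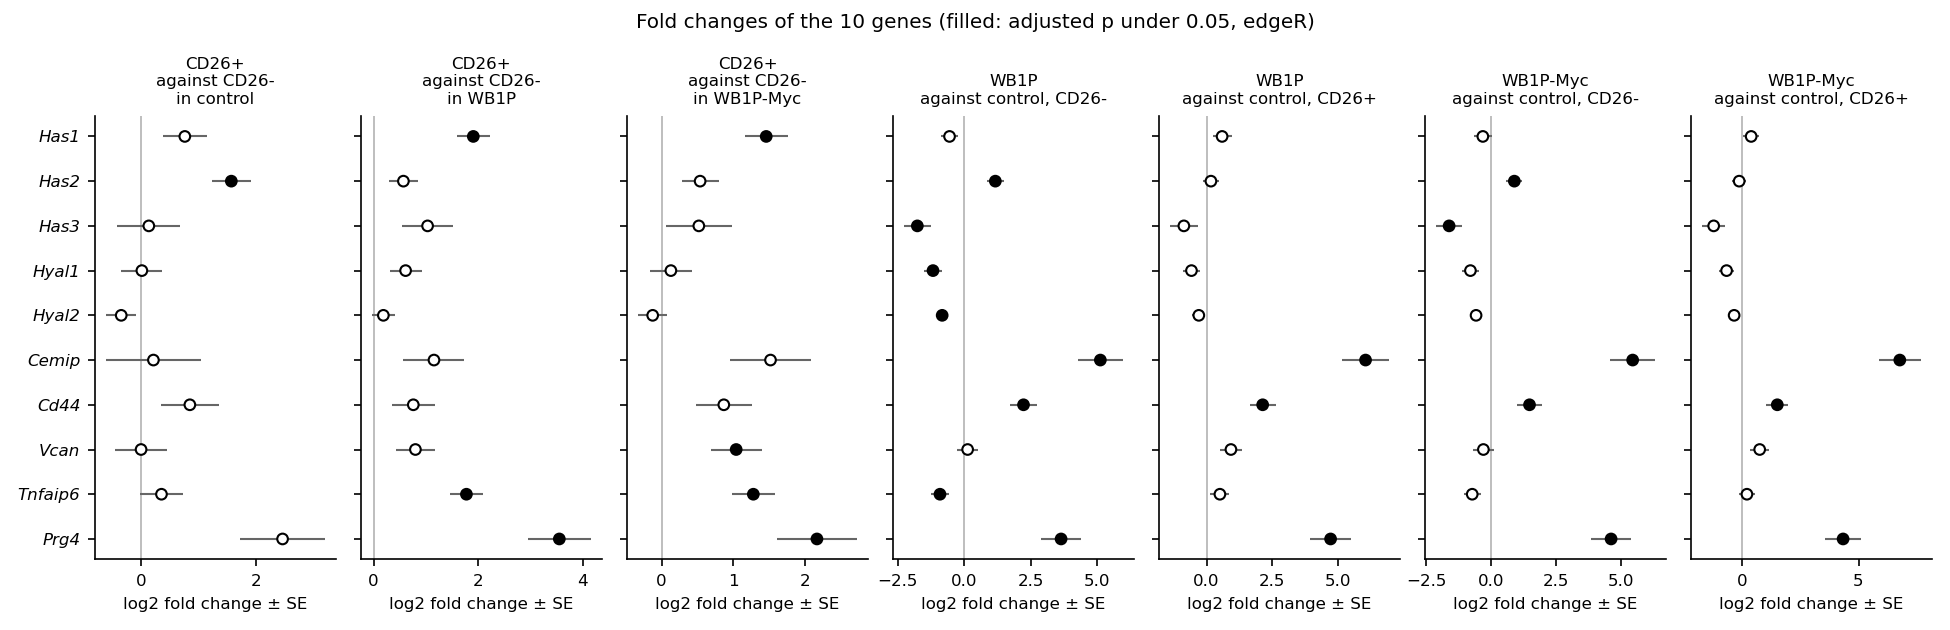
Log2 fold change of each gene (horizontal axis) in the comparisons of CD26 classes and of tumors with control, with bars for the SE of the fit and filled symbols for edgeR adjusted p under 0.05. Cemip reached 6.77 and Has3 -1.77, the largest and the smallest called values.

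The 2 tumor types, the change of the CD26 difference and the En1 lineage were compared next, and the main edgeR fits called none of the 10 genes there. WB1P-Myc against WB1P gave 0 of 10 in each class, beside 0.494% of all genes in CD26− cells and 0% in CD26+ cells. At an unadjusted p under 0.05 edgeR counted 0 of the 10 genes in both classes and 2393 and 638 of all genes. DESeq2 called 411 and 9 of all genes and limma voom 81 and 0, with 0 of the 10 genes among them. For the change of the CD26 difference the count was 0 of 10 in WB1P against control (1.82% of all genes), in WB1P-Myc against control (1.14%) and in WB1P-Myc against WB1P (0%), with 3, 1 and 0 of the 10 genes and 2229, 1608 and 550 of all genes at an unadjusted p under 0.05. DESeq2 called 646, 414 and 2 of all genes in these changes and limma voom 1148, 659 and 0. Of the 10 genes, DESeq2 called 0 and limma voom called Tnfaip6 in the first change and Has2 in the second. With mouse as a fixed block edgeR called 842, 520 and 0 of all genes (5.08%, 3.14% and 0%). Of the 10 genes the block called Tnfaip6 in the first change, with 6, 2 and 1 at an unadjusted p under 0.05. Single libraries gave 1448, 743 and 1 of all genes, and of the 10 Has1 and Tnfaip6 in the first change. En1+ against En1− libraries gave 0 of 10 in both classes, beside 0.00642% of all genes in CD26− and 0.0128% in CD26+ cells, with 0 of the 10 and 537 and 278 of all genes at an unadjusted p under 0.05. DESeq2 called 16 and 4 of all genes there, and 0 of the 10. With mouse as a fixed block edgeR called 409 and 27 of all genes (2.62% and 0.173%) and 0 of the 10, with 2 and 1 of the 10 at an unadjusted p under 0.05. Log2 fold changes of the 10 genes between En1 classes lay between -0.23 and 0.15 in CD26− cells and between -0.20 and 0.15 in CD26+ cells. Over the 10 genes, the En1+ library was the higher of a pair from 1 mouse in 1 (Has1) to 9 (Cd44) of 10 CD26− pairs and in 1 (Has2) to 6 (Has3 and Prg4) of 9 CD26+ pairs.

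**Figure D3:**
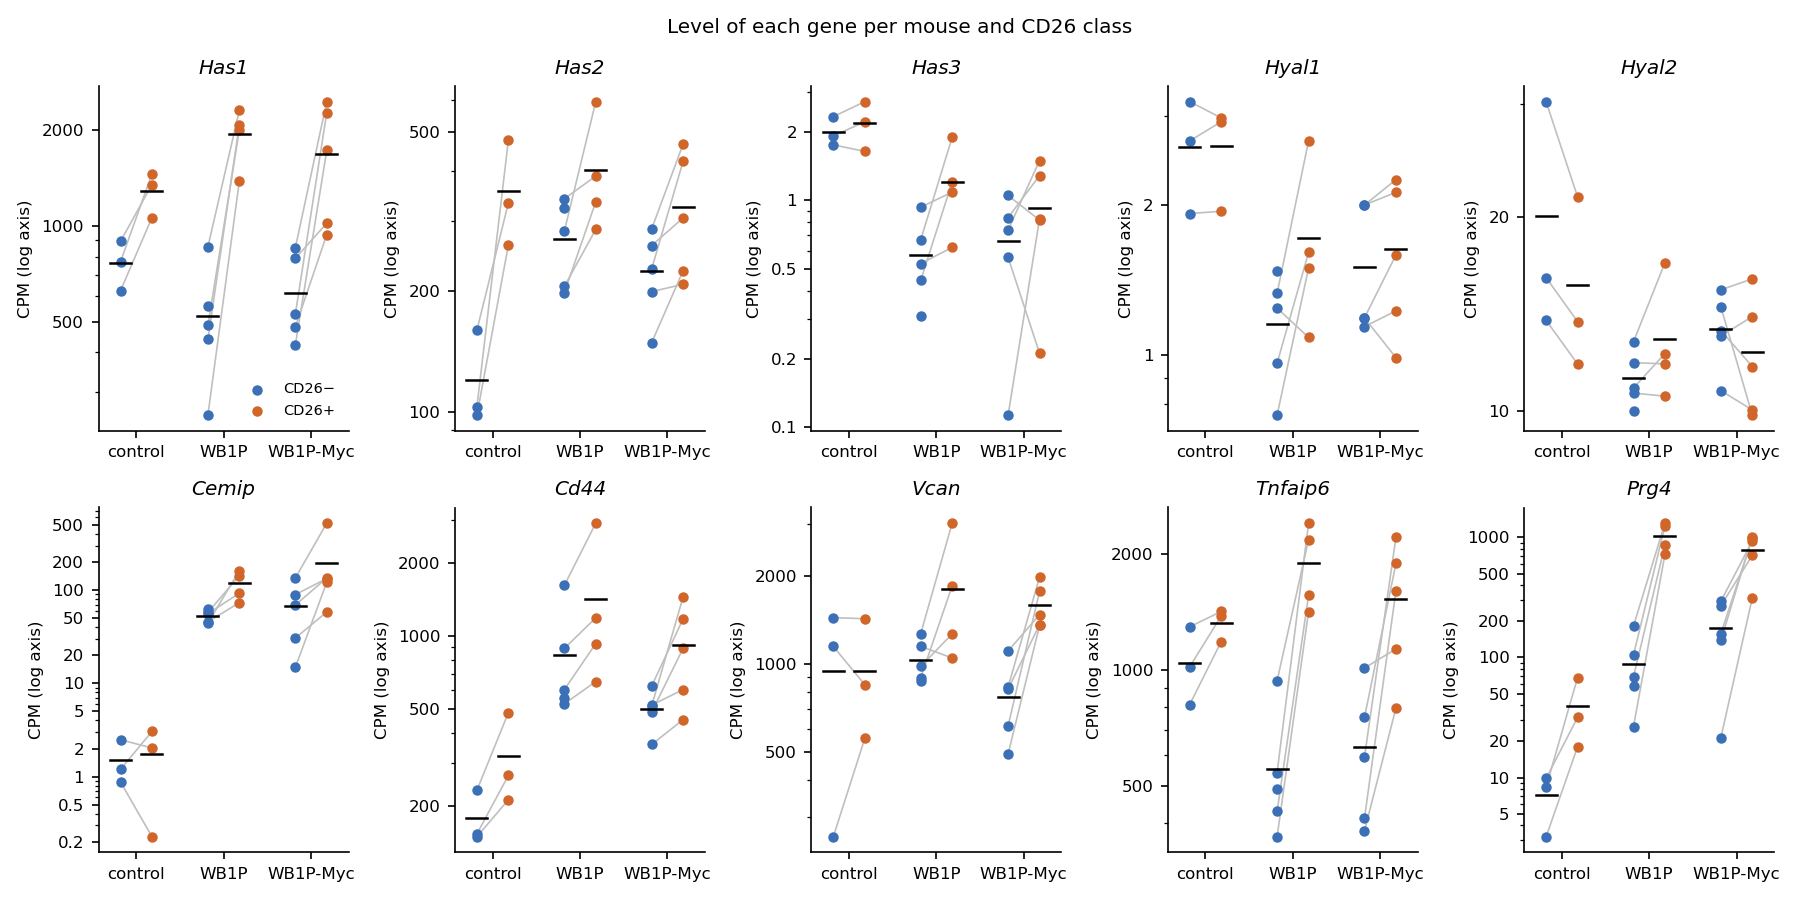
CPM of each gene (log axis) in each mouse by tissue, with CD26− and CD26+ values of 1 mouse joined by a line and black bars for group means (n = 3, 3, 5, 4, 5 and 5). Prg4 in control mice ran from 3.21 to 67.9 CPM over both classes, and in CD26+ cells of WB1P from 725 to 1314 CPM.

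Has1 (ENSMUSG00000003665, chromosome 17, 17843323 to 17855205, minus strand, coordinates of GRCm38 here and below) encodes a synthase of the hyaluronan chain. Has1 stood at 772, 894 and 625 CPM in CD26− cells of control mice and at 1459, 1350.1 and 1062 CPM in their CD26+ cells. Has1 in WB1P tumors was 561, 859, 486, 253 and 439 CPM in CD26− cells and 2313, 2008, 1386 and 2085 CPM in CD26+ cells. Has1 in WB1P-Myc tumors was 526, 480.2, 852, 421 and 790.2 CPM in CD26− cells and 2273, 939, 2462, 1729 and 1019.9 CPM in CD26+ cells. In each tissue every CD26+ value lay above every CD26− value, while tumor and control values overlapped in both classes. Has1 was higher in CD26+ cells of WB1P in 4 of 4 mice (log2 fold change 1.91 ± 0.32 (SE), edgeR adjusted p = 0.000121) and of WB1P-Myc in 5 of 5 (log2 fold change 1.46 ± 0.30 (SE), edgeR adjusted p = 0.00119). In control it was higher in 3 of 3 mice without passing the test (log2 fold change 0.76 ± 0.38 (SE), edgeR adjusted p = 0.392). Has1 did not pass the test for a change of the CD26 difference against control in WB1P (log2 fold change 1.15 ± 0.49 (SE), edgeR adjusted p = 0.297) or in WB1P-Myc (log2 fold change 0.70 ± 0.48 (SE), edgeR adjusted p = 0.764). The first of these passed with single libraries as the unit (0.0469). Has1 over the alternatives spanned 0.0469 to 0.621. Tumor against control log2 fold changes were -0.56 in CD26− and 0.59 in CD26+ cells of WB1P and -0.32 and 0.38 in those of WB1P-Myc, with edgeR adjusted p of 0.205, 0.207, 0.479 and 0.4.

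Has2 (ENSMUSG00000022367, chromosome 15, 56665627 to 56694539, minus strand) encodes the synthase that mouse embryos cannot do without. Has2 stood at 160.0, 103 and 98.1 CPM in CD26− cells of control mice and at 332, 477 and 261 CPM in their CD26+ cells. Has2 in WB1P tumors was 323, 282, 340.4, 206 and 198 CPM in CD26− cells and 595, 388, 285 and 335 CPM in CD26+ cells. Has2 in WB1P-Myc tumors was 228, 149, 286, 199.6 and 260.2 CPM in CD26− cells and 423, 225, 467, 208 and 305 CPM in CD26+ cells. The 3 control CD26+ values lay above the 3 CD26− values, each WB1P CD26− value lay above every control CD26− value, and 4 of 5 WB1P-Myc CD26− values did. Has2 was higher in CD26+ cells of control tissue in 3 of 3 mice (log2 fold change 1.57 ± 0.34 (SE), edgeR adjusted p = 0.00808). That call was lost with a fit on only the groups compared (0.0692), control mouse 49/52 left out (0.208) and control mouse 44/46 left out (0.0674), with a log2 fold change of 1.198 without 49/52. Has2 over the alternatives spanned 2.38e-05 to 0.208. CD26+ cells had more Has2 in 4 of 4 WB1P and 5 of 5 WB1P-Myc mice. Neither was called (log2 fold change 0.57, edgeR adjusted p = 0.129 in WB1P and log2 fold change 0.54, edgeR adjusted p = 0.157 in WB1P-Myc). The WB1P difference passed with single libraries as the unit (0.0283), limma voom with a correlation within mice (0.0276) and mouse as a fixed block (0.0233). The WB1P-Myc difference passed with single libraries as the unit (0.0483), limma voom with a correlation within mice (0.0425) and mouse as a fixed block (0.0419). Over their alternatives these Has2 values spanned 0.0233 to 0.469 and 0.0419 to 0.421. Has2 had no called change of the CD26 difference against control in WB1P (log2 fold change -0.997, edgeR adjusted p = 0.305) or WB1P-Myc (log2 fold change -1.03, edgeR adjusted p = 0.378). The second passed with limma voom with a correlation within mice (0.0471). Has2 over the alternatives spanned 0.0471 to 0.918.

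Has2 was higher in CD26− cells of tumors than of control, in WB1P (log2 fold change 1.17 ± 0.31 (SE), edgeR adjusted p = 0.00585) and in WB1P-Myc (log2 fold change 0.90 ± 0.31 (SE), edgeR adjusted p = 0.026). The WB1P-Myc call was lost with the 2 mice marked 8x8 left out (0.0655), control mouse 49/52 left out (0.0884), control mouse 44/46 left out (0.11) and WB1P-Myc mouse 69 left out (0.0556). Has2 over the alternatives spanned 0.00264 to 0.11. In CD26+ cells Has2 averaged 357 ± 110.0 CPM (SD, n = 3) in control, 401 ± 136 CPM (SD, n = 4) in WB1P and 326 ± 116 CPM (SD, n = 5) in WB1P-Myc, and neither tumor passed the test against control (edgeR adjusted p = 0.706 and 0.758). Has2os, an antisense RNA whose exons overlap those of Has2 on the opposite strand (chromosome 15, 56689944 to 56778399), averaged 1.52 to 2.16 CPM in the 3 CD26− groups and 5.82 to 6.69 CPM in the 3 CD26+ groups. It was higher in CD26+ cells of WB1P (log2 fold change 2.12, edgeR adjusted p = 1.49e-05), of WB1P-Myc (log2 fold change 1.43, edgeR adjusted p = 0.000533) and of control (log2 fold change 1.77, edgeR adjusted p = 0.00391), the last lost with a fit on only the groups compared (0.0988), control mouse 49/52 left out (0.0994) and control mouse 44/46 left out (0.0872). Whether the counting used strand is not given in the sources used here, so reads of Has2 and Has2os could be counted to each other.

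Has3 (ENSMUSG00000031910, chromosome 8, 106870242 to 106884566, plus strand) encodes the synthase known for shorter chains, and was the lowest of the synthases with 1 to 45 counts a library (median 12). Has3 stood at 1.92, 2.34 and 1.75 CPM in CD26− cells of control mice and at 2.22, 2.72 and 1.64 CPM in their CD26+ cells. Has3 in WB1P tumors was 0.31, 0.67, 0.932, 0.526 and 0.443 CPM in CD26− cells and 1.89, 1.09, 0.62 and 1.204 CPM in CD26+ cells. Has3 in WB1P-Myc tumors was 0.739, 0.561, 0.839, 0.113 and 1.05 CPM in CD26− cells and 1.496, 0.212, 1.28, 0.828 and 0.818 CPM in CD26+ cells. All 10 tumor CD26− values lay below every control CD26− value, as did all 5 WB1P-Myc CD26+ values below the control CD26+ values. Has3 fell in CD26− cells of WB1P (log2 fold change -1.77 ± 0.50 (SE), edgeR adjusted p = 0.00852) and of WB1P-Myc (log2 fold change -1.62 ± 0.50 (SE), edgeR adjusted p = 0.0151), the second lost with control mouse 49/52 left out (0.0596). Has3 over the alternatives spanned 0.000667 to 0.0596. Its CD26+ cells did not pass against control in WB1P (log2 fold change -0.86, edgeR adjusted p = 0.208) or in WB1P-Myc (log2 fold change -1.23, edgeR adjusted p = 0.0574). The second passed with DESeq2's Wald test (0.0305), single libraries as the unit (0.0145), WB1P-Myc mouse 21 left out (0.0402) and limma voom with a correlation within mice (0.0413). Has3 over the alternatives spanned 0.0145 to 0.19. For Has3 the change of the CD26 difference against control did not pass (log2 fold change 0.90 in WB1P and 0.39 in WB1P-Myc, edgeR adjusted p = 0.653 and 0.968). Has3 was higher in CD26+ cells in 4 of 4 WB1P mice (log2 fold change 1.03, edgeR adjusted p = 0.122), in 2 of 3 control mice (log2 fold change 0.13, edgeR adjusted p = 0.98) and in 3 of 5 WB1P-Myc mice (log2 fold change 0.52, edgeR adjusted p = 0.49). The WB1P difference passed with single libraries as the unit (0.0453). Has3 over the alternatives spanned 0.0453 to 0.367. An exon end of Has3 overlaps Chtf8 on the opposite strand, so its counts are uncertain to that extent.

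Hyal1 (ENSMUSG00000010051, chromosome 9, 107576927 to 107581710, plus strand) encodes a hyaluronidase of lysosomes, counted 6 to 59 times a library (median 21). Hyal1 stood at 1.92, 3.21 and 2.68 CPM in CD26− cells of control mice and at 1.94, 2.98 and 2.93 CPM in their CD26+ cells. Hyal1 in WB1P tumors was 1.47, 0.759, 1.24, 0.964 and 1.33 CPM in CD26− cells and 1.49, 1.09, 1.605 and 2.68 CPM in CD26+ cells. Hyal1 in WB1P-Myc tumors was 1.996, 1.19, 1.19, 1.998 and 1.14 CPM in CD26− cells and 2.24, 0.99, 1.59, 2.12 and 1.23 CPM in CD26+ cells. All 5 WB1P CD26− values lay below the 3 control values, the WB1P-Myc values overlapped with them, and CD26+ values of tumors and control overlapped. Hyal1 fell in CD26− cells of WB1P (log2 fold change -1.18 ± 0.32 (SE), edgeR adjusted p = 0.0068), a call lost with control mouse 49/52 left out (0.0568). Hyal1 over the alternatives spanned 0.000333 to 0.0568. Hyal1 in CD26− cells of WB1P-Myc was not called (log2 fold change -0.79, edgeR adjusted p = 0.0558). It passed with DESeq2's Wald test (0.0304), single libraries as the unit (0.0129), control mouse 82/83 left out (0.0426), WB1P mouse 93 left out (0.0492), WB1P mouse 35 left out (0.0474), WB1P-Myc mouse 21 left out (0.0396), WB1P-Myc mouse 23 left out (0.0401) and limma voom with a correlation within mice (0.0235). Hyal1 over the alternatives spanned 0.0129 to 0.231. WB1P-Myc did not pass against WB1P in CD26− cells (log2 fold change 0.38, edgeR adjusted p = 0.558). Neither did CD26+ cells against control in WB1P (log2 fold change -0.57, edgeR adjusted p = 0.196) and WB1P-Myc (log2 fold change -0.67, edgeR adjusted p = 0.106). The test for a change of its CD26 difference did not pass in WB1P (log2 fold change 0.60, edgeR adjusted p = 0.64) or WB1P-Myc (log2 fold change 0.12, edgeR adjusted p = 0.995). CD26+ cells of WB1P had more Hyal1 in 3 of 4 mice (log2 fold change 0.61, edgeR adjusted p = 0.15). This passed with single libraries as the unit (0.045), limma voom with a correlation within mice (0.0185) and mouse as a fixed block (0.023). Hyal1 over the alternatives spanned 0.0185 to 0.493. In WB1P-Myc it was higher in 4 of 5 mice (log2 fold change 0.13, edgeR adjusted p = 0.821). In control it was higher in 2 of 3, at means of 2.604 ± 0.649 CPM (SD, n = 3) and 2.62 ± 0.587 CPM (SD, n = 3) (edgeR adjusted p = 1). Exons of Hyal1 overlap those of Hyal3 and Naa80 on the same strand, so the split of reads among them is uncertain.

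Hyal2 (ENSMUSG00000010047, chromosome 9, 107567945 to 107572779, plus strand) encodes a hyaluronidase anchored to the cell surface. Hyal2 stood at 16.1, 30.2 and 13.8 CPM in CD26− cells of control mice and at 13.8, 21.5 and 11.8 CPM in their CD26+ cells. Hyal2 in WB1P tumors was 9.99, 10.7, 12.8, 10.9 and 11.9 CPM in CD26− cells and 10.6, 17.01, 12.3 and 11.8 CPM in CD26+ cells. Hyal2 in WB1P-Myc tumors was 13.1, 15.4, 10.8, 13.3 and 14.5 CPM in CD26− cells and 14.03, 16.05, 10.05, 11.7 and 9.86 CPM in CD26+ cells. Control mouse 49/52 was the highest in both classes, at 30.2 and 21.5 CPM, and all 5 WB1P CD26− values lay below the 3 control values. Hyal2 fell in CD26− cells of WB1P (log2 fold change -0.83 ± 0.23 (SE), edgeR adjusted p = 0.00732), a call lost with control mouse 49/52 left out (0.152) at a log2 fold change of -0.39. Hyal2 over the alternatives spanned 0.000324 to 0.152. Hyal2 in CD26− cells of WB1P-Myc lay below every control value in 3 of 5 mice and was not called (log2 fold change -0.58, edgeR adjusted p = 0.0535). It passed with DESeq2 size factors in edgeR (0.0445), DESeq2's Wald test (0.0365), single libraries as the unit (0.0198), control mouse 82/83 left out (0.0438), control mouse 44/46 left out (0.0228) and WB1P-Myc mouse 67 left out (0.0447), and without control mouse 49/52 had a log2 fold change of -0.14 (edgeR adjusted p = 0.624). Hyal2 over the alternatives spanned 0.0198 to 0.624. WB1P-Myc did not pass against WB1P in CD26− cells (log2 fold change 0.26, edgeR adjusted p = 0.579). Hyal2 was higher in CD26+ cells in 0 of 3 control mice (log2 fold change -0.35, edgeR adjusted p = 0.671) and 2 of 4 WB1P mice (log2 fold change 0.19, edgeR adjusted p = 0.568). In WB1P-Myc it was so in 2 of 5 mice (edgeR adjusted p = 0.742, at means of 13.4 ± 1.76 CPM (SD, n = 5) and 12.3 ± 2.66 CPM (SD, n = 5)). CD26+ cells of tumors did not pass against control, with edgeR adjusted p of 0.37 in WB1P and 0.249 in WB1P-Myc at means of 15.7 ± 5.12 CPM (SD, n = 3), 12.9 ± 2.82 CPM (SD, n = 4) and 12.3 ± 2.66 CPM (SD, n = 5). Nor did the change of the CD26 difference in WB1P (log2 fold change 0.54, edgeR adjusted p = 0.529) or WB1P-Myc (log2 fold change 0.23, edgeR adjusted p = 0.945).

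Cemip (ENSMUSG00000052353, chromosome 7, 83932857 to 84086502, minus strand) encodes a protein that binds hyaluronan and is needed for its breakdown by skin fibroblasts. Cemip stood at 1.195, 0.876 and 2.48 CPM in CD26− cells of control mice and at 3.05, 0.226 and 2.03 CPM in their CD26+ cells. Cemip in WB1P tumors was 61.9, 57.5, 45.6, 44.1 and 55.8 CPM in CD26− cells and 143, 73.3, 162 and 92.4 CPM in CD26+ cells. Cemip in WB1P-Myc tumors was 14.8, 89.4, 69.1, 134 and 30.5 CPM in CD26− cells and 121, 133, 135, 521 and 58.2 CPM in CD26+ cells. Every tumor value lay above every control value of its class, and the highest, mouse 23 of WB1P-Myc, stood far from the other CD26+ values of its group. Cemip rose in CD26− cells of WB1P (log2 fold change 5.11 ± 0.85 (SE), edgeR adjusted p = 8.81e-05) and of WB1P-Myc (log2 fold change 5.47 ± 0.86 (SE), edgeR adjusted p = 6.43e-05). It rose in CD26+ cells of WB1P (log2 fold change 6.06 ± 0.89 (SE), edgeR adjusted p = 5.25e-05) and of WB1P-Myc (log2 fold change 6.77 ± 0.91 (SE), edgeR adjusted p = 2.15e-05). Without control mouse 82/83, which had the highest control value in CD26+ cells, the log2 fold changes in CD26+ cells were 6.66, edgeR adjusted p = 0.000402 in WB1P and 7.38, edgeR adjusted p = 0.00024 in WB1P-Myc. Without mouse 23 the latter was 5.98, edgeR adjusted p = 1.34e-05. Cemip was higher in CD26+ cells in 4 of 4 WB1P and 5 of 5 WB1P-Myc mice. Neither was called (log2 fold change 1.15 ± 0.58 (SE), edgeR adjusted p = 0.153 in WB1P and log2 fold change 1.52 ± 0.56 (SE), edgeR adjusted p = 0.0607 in WB1P-Myc). The WB1P difference passed with a fit on only the groups compared (0.00417), single libraries as the unit (0.0259), limma voom with a correlation within mice (0.0281) and mouse as a fixed block (0.0298). The WB1P-Myc difference passed with DESeq2's Wald test (0.036), single libraries as the unit (0.0149), control mouse 49/52 left out (0.0441), limma voom with a correlation within mice (0.00296) and mouse as a fixed block (0.00593). Over their alternatives these Cemip values spanned 0.00417 to 0.387 and 0.00296 to 0.21. In control, where a sum held 6 to 77 Cemip counts, it was higher in 1 of 3 mice (edgeR adjusted p = 0.978). The control log2 fold change was 0.21, and without mouse 82/83 it was -0.55 (edgeR adjusted p = 0.946). Cemip had no called change of the CD26 difference in WB1P (log2 fold change 0.95, edgeR adjusted p = 0.759) or WB1P-Myc (log2 fold change 1.31, edgeR adjusted p = 0.817). Without control mouse 82/83 the log2 values of these changes were 1.69 (edgeR adjusted p = 0.674) and 2.06 (edgeR adjusted p = 0.806).

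Cd44 (ENSMUSG00000005087, chromosome 2, 102811141 to 102901665, minus strand) encodes the main cell-surface receptor for hyaluronan. Cd44 stood at 233, 150.2 and 154 CPM in CD26− cells of control mice and at 485, 213 and 268 CPM in their CD26+ cells. Cd44 in WB1P tumors was 557, 1611, 889, 527 and 602 CPM in CD26− cells and 2901, 1187, 650.1 and 930.2 CPM in CD26+ cells. Cd44 in WB1P-Myc tumors was 517, 359, 624, 488 and 520.5 CPM in CD26− cells and 1448, 454, 1176, 891 and 603 CPM in CD26+ cells. Every tumor CD26− value and every WB1P CD26+ value lay above the control values of its class, WB1P-Myc CD26+ values did in 4 of 5, and WB1P mouse 93 was the highest of its tumor type in both classes. Cd44 rose in CD26− cells of WB1P (log2 fold change 2.22 ± 0.49 (SE), edgeR adjusted p = 0.00135) and of WB1P-Myc (log2 fold change 1.49 ± 0.47 (SE), edgeR adjusted p = 0.0178). It rose in CD26+ cells of WB1P (log2 fold change 2.14 ± 0.50 (SE), edgeR adjusted p = 0.00291), where the log2 fold change without mouse 93 was 1.51, edgeR adjusted p = 0.00454, and of WB1P-Myc (log2 fold change 1.51 ± 0.47 (SE), edgeR adjusted p = 0.0177). The WB1P-Myc calls were lost in CD26− cells with the 2 mice marked 8x8 left out (0.0526), control mouse 49/52 left out (0.0691) and control mouse 44/46 left out (0.077). In CD26+ cells they were lost with control mouse 49/52 left out (0.0869) and control mouse 44/46 left out (0.0781). Over their alternatives these Cd44 values spanned 0.00122 to 0.077 and 0.000515 to 0.0869. WB1P-Myc did not pass against WB1P in CD26− (log2 fold change -0.74, edgeR adjusted p = 0.388) or CD26+ cells (log2 fold change -0.63, edgeR adjusted p = 1). Without WB1P mouse 93 the CD26+ log2 fold change was -0.00352 (edgeR adjusted p = 1). Cd44 was higher in CD26+ cells in 3 of 3 control, 4 of 4 WB1P and 5 of 5 WB1P-Myc mice. It was not called in control (log2 fold change 0.84, edgeR adjusted p = 0.516), WB1P (log2 fold change 0.76, edgeR adjusted p = 0.18) and WB1P-Myc (log2 fold change 0.87, edgeR adjusted p = 0.126). These passed in control with mouse as a fixed block (0.0317), and in WB1P with mouse as a fixed block (0.0346). The WB1P-Myc difference passed with single libraries as the unit (0.0244), WB1P mouse 93 left out (0.0364), limma voom with a correlation within mice (0.0203) and mouse as a fixed block (0.00362). Over their alternatives these Cd44 values spanned 0.0317 to 0.922, 0.0346 to 0.332 and 0.00362 to 0.403. Cd44 had edgeR adjusted p for the change of the CD26 difference against control of 0.98 in WB1P and 0.9999 in WB1P-Myc.

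Vcan (ENSMUSG00000021614, chromosome 13, 89655312 to 89742509, minus strand) encodes versican, a large proteoglycan whose globular end binds hyaluronan. Vcan stood at 1438, 256 and 1146 CPM in CD26− cells of control mice and at 1425, 555 and 848 CPM in their CD26+ cells. Vcan in WB1P tumors was 874, 1267, 1146, 979 and 894 CPM in CD26− cells and 3026, 1046, 1265 and 1848 CPM in CD26+ cells. Vcan in WB1P-Myc tumors was 612, 1105, 491, 832 and 819 CPM in CD26− cells and 1767, 1472, 1351, 1978 and 1360.2 CPM in CD26+ cells. Control mouse 49/52 held the lowest value of either class. In CD26− cells all 5 WB1P-Myc values lay below those of the other two control mice, WB1P values overlapped with them, and so did CD26+ values of both tumors. In WB1P-Myc the 5 CD26+ values lay above the 5 CD26− values. Vcan was higher in CD26+ cells of WB1P-Myc in 5 of 5 mice (log2 fold change 1.04 ± 0.35 (SE), edgeR adjusted p = 0.0414). That call was lost with no low-count filter (0.0832), the 2 mice marked 8x8 left out (0.197), control mouse 44/46 left out (0.0545), WB1P mouse 14 left out (0.0517), WB1P mouse 35 left out (0.0547), WB1P-Myc mouse 21 left out (0.168), WB1P-Myc mouse 95 left out (0.113), WB1P-Myc mouse 23 left out (0.128) and WB1P-Myc mouse 69 left out (0.0681). Vcan over the alternatives spanned 0.003 to 0.197. In WB1P it was higher in 3 of 4 mice (log2 fold change 0.80, edgeR adjusted p = 0.118), and in control in 1 of 3 (edgeR adjusted p = 1). The WB1P difference passed with single libraries as the unit (0.0217) and control mouse 49/52 left out (0.0358). Vcan over the alternatives spanned 0.0217 to 0.382. No change of the CD26 difference passed, in WB1P (log2 fold change 0.81, edgeR adjusted p = 0.605) or in WB1P-Myc (log2 fold change 1.04, edgeR adjusted p = 0.614). Vcan in CD26− cells did not pass against control (edgeR adjusted p = 0.836 in WB1P and 0.586 in WB1P-Myc), at means of 947 ± 616 CPM (SD, n = 3), 1032 ± 169.6 CPM (SD, n = 5) and 772 ± 235 CPM (SD, n = 5). The direction of these Vcan differences turned with the control mouse left out: the log2 fold changes were 0.12 in WB1P and -0.29 in WB1P-Myc with all mice. Without mouse 49/52 they were -0.31 (edgeR adjusted p = 0.532) and -0.73 (edgeR adjusted p = 0.103), and without mouse 82/83 0.57 (edgeR adjusted p = 0.342) and 0.15 (edgeR adjusted p = 0.817). CD26+ cells did not pass against control in WB1P (log2 fold change 0.93, edgeR adjusted p = 0.0999) or in WB1P-Myc (log2 fold change 0.75, edgeR adjusted p = 0.164). The first passed with single libraries as the unit (0.00983) and control mouse 82/83 left out (0.0372). The second passed with single libraries as the unit (0.0297). Over their alternatives these Vcan values spanned 0.00983 to 0.322 and 0.0297 to 0.314.

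Tnfaip6 (ENSMUSG00000053475, chromosome 2, 52038009 to 52056686, plus strand) encodes TSG-6, a secreted protein that binds hyaluronan and moves the heavy chains of inter-alpha-inhibitor onto it. Tnfaip6 stood at 1019.7, 1295 and 813 CPM in CD26− cells of control mice and at 1381, 1419.5 and 1185 CPM in their CD26+ cells. Tnfaip6 in WB1P tumors was 489.8, 937, 541, 369 and 429 CPM in CD26− cells and 2183, 2408, 1418 and 1562 CPM in CD26+ cells. Tnfaip6 in WB1P-Myc tumors was 594, 382, 753, 412 and 1012 CPM in CD26− cells and 2214, 796, 1892, 1606 and 1135 CPM in CD26+ cells. Every WB1P CD26+ value lay above every WB1P CD26− value, 4 of 5 did in WB1P-Myc, and 4 of 5 CD26− values of each tumor lay below the 3 control CD26− values. Tnfaip6 was higher in CD26+ cells of WB1P in 4 of 4 mice (log2 fold change 1.77 ± 0.32 (SE), edgeR adjusted p = 0.000254) and of WB1P-Myc in 5 of 5 (log2 fold change 1.28 ± 0.30 (SE), edgeR adjusted p = 0.00361). In control it was higher in 3 of 3 mice without passing the test (log2 fold change 0.35 ± 0.38 (SE), edgeR adjusted p = 0.842). Tnfaip6 did not pass the test for a change of the CD26 difference against control in WB1P (log2 fold change 1.43 ± 0.50 (SE), edgeR adjusted p = 0.165). This passed with single libraries as the unit (0.0196), limma voom with a correlation within mice (0.0244) and mouse as a fixed block (0.0471). Tnfaip6 over the alternatives spanned 0.0196 to 0.466. Nor did it in WB1P-Myc (log2 fold change 0.93, edgeR adjusted p = 0.577). Against control, Tnfaip6 fell in CD26− cells of WB1P (log2 fold change -0.91 ± 0.33 (SE), edgeR adjusted p = 0.0372), a call lost with no low-count filter (0.059), control mouse 82/83 left out (0.0771), control mouse 49/52 left out (0.189), WB1P mouse 10 left out (0.0665), WB1P mouse 12 left out (0.0584), WB1P mouse 14 left out (0.0877) and WB1P mouse 35 left out (0.084). Tnfaip6 over the alternatives spanned 0.00414 to 0.189. Tnfaip6 in CD26− cells of WB1P-Myc was not called (log2 fold change -0.73, edgeR adjusted p = 0.0933). It passed with single libraries as the unit (0.0229) and WB1P-Myc mouse 69 left out (0.0328). Tnfaip6 over the alternatives spanned 0.0229 to 0.323. WB1P-Myc against WB1P in CD26− cells had an edgeR adjusted p of 0.793 at means of 631 ± 260.4 CPM (SD, n = 5) and 553 ± 224 CPM (SD, n = 5). CD26+ cells did not pass against control in WB1P (log2 fold change 0.51, edgeR adjusted p = 0.282) or in WB1P-Myc (log2 fold change 0.20, edgeR adjusted p = 0.674).

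Prg4 (ENSMUSG00000006014, chromosome 1, 150449412 to 150466165, minus strand) encodes lubricin, a mucin-like glycoprotein that works with hyaluronan in joint lubrication and binds CD44. Prg4 stood at 8.33, 9.82 and 3.21 CPM in CD26− cells of control mice and at 67.9, 31.7 and 18.02 CPM in their CD26+ cells. Prg4 in WB1P tumors was 58.2, 183, 26.6, 105 and 68.98 CPM in CD26− cells and 1314, 725, 1242 and 865 CPM in CD26+ cells. Prg4 in WB1P-Myc tumors was 139, 270.3, 158, 21.5 and 294 CPM in CD26− cells and 1008, 709, 990.0, 314 and 933 CPM in CD26+ cells. In each tissue every CD26+ value lay above every CD26− value, and WB1P and WB1P-Myc values lay above the control values of their class in every mouse. Prg4 was higher in CD26+ cells of WB1P in 4 of 4 mice (log2 fold change 3.55 ± 0.60 (SE), edgeR adjusted p = 0.000162) and of WB1P-Myc in 5 of 5 (log2 fold change 2.16 ± 0.56 (SE), edgeR adjusted p = 0.00725). In control it was higher in 3 of 3 mice without being called (log2 fold change 2.46 ± 0.74 (SE), edgeR adjusted p = 0.0635). That difference passed with DESeq2's Wald test (0.00789), single libraries as the unit (0.00381), the 2 mice marked 8x8 left out (0.0235), WB1P-Myc mouse 23 left out (0.017), limma voom with a correlation within mice (0.013) and mouse as a fixed block (0.00461). Prg4 over the alternatives spanned 0.00381 to 0.36. Prg4 did not pass the test for a change of the CD26 difference against control in WB1P (log2 fold change 1.09 ± 0.90 (SE), edgeR adjusted p = 0.663) or in WB1P-Myc (edgeR adjusted p = 0.987). Prg4 rose against control in CD26− cells of WB1P (log2 fold change 3.64 ± 0.74 (SE), edgeR adjusted p = 0.000676) and of WB1P-Myc (log2 fold change 4.63 ± 0.78 (SE), edgeR adjusted p = 0.00013). It rose in CD26+ cells of WB1P (log2 fold change 4.73 ± 0.79 (SE), edgeR adjusted p = 0.000184) and of WB1P-Myc (log2 fold change 4.34 ± 0.76 (SE), edgeR adjusted p = 0.000313). Without control mouse 82/83 the log2 fold changes in CD26+ cells were 5.37, edgeR adjusted p = 0.000741 in WB1P and 4.99, edgeR adjusted p = 0.00112 in WB1P-Myc. An exon end of Prg4 overlaps Tpr on the opposite strand, so its counts are uncertain to that extent.

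Of 45 other genes of the hyaluronan pathway, listed by role, 44 were found in the table (Hyalp1 was not) and 36 passed the low-count filter. Hyal5, Hyal6 and Spam1 had no counts in any sum, which allows up to 3 counts in each, and Hyal4 at most 1. CD26+ against CD26− cells called 4 higher and 1 lower of the 36 in control, 13 higher and 3 lower in WB1P and 12 higher and 3 lower in WB1P-Myc, with medians of 0.06 against -0.02, 0.60 against 0.01 and 0.28 against -0.01 for the 36 against all genes. The calls among all genes were 4.13%, 25.9% and 20%. Tumors against control called 7 higher and 8 lower in WB1P CD26− cells, 7 higher and 3 lower in WB1P CD26+ cells, 5 higher and 6 lower in WB1P-Myc CD26− cells and 6 higher and 5 lower in WB1P-Myc CD26+ cells, with medians of -0.08 against 0.00, 0.29 against 0.00, 0.02 against 0.02 and 0.23 against -0.01. Among all genes 35.4%, 33.5%, 36.5% and 34.6% were called there. WB1P-Myc against WB1P called 0 of the 36 with edgeR in both classes, with 8 in CD26− and 1 in CD26+ cells at an unadjusted p under 0.05. DESeq2 and limma voom called 0 in both classes. Single libraries gave 6 in CD26− and 0 in CD26+ cells, beside 1059 and 9 of the 15584 genes tested.

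Enzymes that supply the sugar precursors were higher in CD26+ cells in 2 of 7 genes in control, 6 of 7 in WB1P and 6 of 7 in WB1P-Myc, and none was lower. Of all genes 2.65%, 13% and 9.28% were called higher there. The median log2 fold change of these 7 was 1.28 in control, 1.59 in WB1P and 1.52 in WB1P-Myc, so the counts do not show a smaller difference in control. In control 5 of the 7 had an unadjusted p under 0.05, DESeq2's Wald test called 3, and limma voom, single libraries and mouse as a fixed block called 5 each. The block called 11.4% of all genes in control, in either direction. Shares of all genes under the other 3 settings are not given here, and the 2.65% belongs to the main fit only. Ugp2, which makes UDP-glucose, was higher in CD26+ cells of WB1P (469 against 95.04 CPM, log2 fold change 2.304 ± 0.21, edgeR adjusted p = 1.55e-07) and of WB1P-Myc (419 against 107 CPM, log2 fold change 1.97 ± 0.20, edgeR adjusted p = 4.45e-07). Ugdh, which oxidises UDP-glucose to UDP-glucuronic acid, was higher in CD26+ cells of WB1P (1498 against 404 CPM, log2 fold change 1.89 ± 0.35, edgeR adjusted p = 0.000387) and of WB1P-Myc (1298 against 353 CPM, log2 fold change 1.88 ± 0.34, edgeR adjusted p = 0.00031). Uap1, which makes UDP-N-acetylglucosamine, was higher in CD26+ cells of WB1P (1564 against 354 CPM, log2 fold change 2.14 ± 0.38, edgeR adjusted p = 0.00025) and of WB1P-Myc (1286 against 361 CPM, log2 fold change 1.83 ± 0.36, edgeR adjusted p = 0.000853). In control Ugp2 and Gnpnat1 were called (log2 fold change 1.19, edgeR adjusted p = 0.00718 and log2 fold change 1.61, edgeR adjusted p = 0.000112). The first was lost with a fit on only the groups compared (0.075), control mouse 49/52 left out (0.0803) and control mouse 44/46 left out (0.0995), and the second with a fit on only the groups compared (0.054). Against control, Ugp2 rose in CD26+ cells of WB1P (log2 fold change 1.37, edgeR adjusted p = 0.000322) and of WB1P-Myc (log2 fold change 1.205, edgeR adjusted p = 0.00072), and no other precursor gene was called in CD26+ cells. In CD26− cells of WB1P edgeR called 0 of the 7, with 1 at an unadjusted p under 0.05, DESeq2's Wald test 1 and limma voom 0. In those of WB1P-Myc Gfpt1 was lower (log2 fold change -0.80, edgeR adjusted p = 0.00742), lost with control mouse 82/83 left out (0.0611), and Gnpnat1 was higher (log2 fold change 0.53, edgeR adjusted p = 0.0446), lost with DESeq2 size factors in edgeR (0.0549), no low-count filter (0.0701), a fit on only the groups compared (0.0624), the 2 mice marked 8x8 left out (0.143), control mouse 49/52 left out (0.149), control mouse 44/46 left out (0.125), WB1P mouse 93 left out (0.0568), WB1P mouse 12 left out (0.0598), WB1P mouse 14 left out (0.052), WB1P mouse 35 left out (0.0642), WB1P-Myc mouse 67 left out (0.108), WB1P-Myc mouse 23 left out (0.0842), WB1P-Myc mouse 69 left out (0.0763) and limma voom with a correlation within mice (0.0824).

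Among genes of breakdown and receptors, Gusb, a lysosomal glucuronidase, rose against control in CD26− and CD26+ cells of WB1P (log2 fold change 0.59, edgeR adjusted p = 0.000417 and log2 fold change 0.80, edgeR adjusted p = 6.10e-05) and of WB1P-Myc (log2 fold change 0.85, edgeR adjusted p = 1.38e-05 and log2 fold change 0.71, edgeR adjusted p = 0.000141). Gusb was also higher in CD26+ than in CD26− cells of WB1P (log2 fold change 0.32, edgeR adjusted p = 0.0237), lost with no low-count filter (0.128), a fit on only the groups compared (0.0749), control mouse 44/46 left out (0.0506), WB1P mouse 12 left out (0.149), WB1P mouse 14 left out (0.106) and WB1P mouse 35 left out (0.0937). Cemip2, a cell-surface protein related to Cemip, rose in CD26− cells of WB1P (239 against 63.7 CPM, log2 fold change 1.91 ± 0.53, edgeR adjusted p = 0.0077). In CD26+ cells its call (log2 fold change 1.41, edgeR adjusted p = 0.0457) was lost with no low-count filter (0.1), a fit on only the groups compared (0.168), the 2 mice marked 8x8 left out (0.0703), control mouse 49/52 left out (0.171), control mouse 44/46 left out (0.163), WB1P mouse 10 left out (0.0506), WB1P mouse 93 left out (0.327), WB1P-Myc mouse 21 left out (0.0568), WB1P-Myc mouse 23 left out (0.0558) and WB1P-Myc mouse 69 left out (0.0557), at a log2 fold change of 0.51 without WB1P mouse 93 (edgeR adjusted p = 0.327). Without control mouse 82/83 it was 2.22 (edgeR adjusted p = 0.00758). Hmmr, a hyaluronan-binding protein of dividing cells, rose in CD26− cells of WB1P (log2 fold change 2.99, edgeR adjusted p = 0.00389) and of WB1P-Myc (log2 fold change 3.42, edgeR adjusted p = 0.00175) and in CD26+ cells of WB1P-Myc (log2 fold change 2.79, edgeR adjusted p = 0.00629). In CD26+ cells of WB1P Hmmr was called as well (log2 fold change 2.71, edgeR adjusted p = 0.00878) and lost with a fit on only the groups compared (0.0578). Over the alternatives its log2 fold change ran 2.48 to 3.61 in CD26− and 2.15 to 3.82 in CD26+ cells of WB1P. In WB1P-Myc it ran 2.91 to 4.04 and 2.19 to 3.96. The markers of dividing cells moved with Hmmr, and their part was not tested.

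Of the other receptors, Layn, with a C-type lectin domain, rose in CD26+ cells of WB1P (47.4 against 16.3 CPM, log2 fold change 1.53 ± 0.27, edgeR adjusted p = 0.000282) and of WB1P-Myc (43.5 against 16.3 CPM, log2 fold change 1.42 ± 0.26, edgeR adjusted p = 0.000441). It rose as well in CD26− cells of WB1P (log2 fold change 0.87, edgeR adjusted p = 0.0103), lost with control mouse 44/46 left out (0.0517), and of WB1P-Myc (log2 fold change 0.87, edgeR adjusted p = 0.0106), lost with the 2 mice marked 8x8 left out (0.0609) and control mouse 44/46 left out (0.0535). Stab1 rose in CD26− cells of WB1P (log2 fold change 1.72, edgeR adjusted p = 0.0119), lost with control mouse 82/83 left out (0.0527) and control mouse 44/46 left out (0.0505). Tlr4 was higher in CD26+ cells of WB1P (log2 fold change 1.11, edgeR adjusted p = 0.00204) and of WB1P-Myc (log2 fold change 0.92, edgeR adjusted p = 0.00653), the latter lost with the 2 mice marked 8x8 left out (0.109). In control it was called too (log2 fold change 1.09, edgeR adjusted p = 0.0411) and lost with no low-count filter (0.07), a fit on only the groups compared (0.0954), the 2 mice marked 8x8 left out (0.0658), control mouse 82/83 left out (0.0655), control mouse 49/52 left out (0.349), control mouse 44/46 left out (0.399), WB1P mouse 93 left out (0.0588), WB1P mouse 14 left out (0.0572), WB1P mouse 35 left out (0.0554), WB1P-Myc mouse 21 left out (0.0549) and WB1P-Myc mouse 69 left out (0.0564). Tlr2 fell against control in CD26+ cells of WB1P (log2 fold change -0.94, edgeR adjusted p = 0.0287), lost with control mouse 82/83 left out (0.0541), control mouse 49/52 left out (0.0961), control mouse 44/46 left out (0.0674), WB1P mouse 12 left out (0.0653) and WB1P mouse 14 left out (0.0802). It fell in those of WB1P-Myc (log2 fold change -0.86, edgeR adjusted p = 0.0321), lost with no low-count filter (0.0522), the 2 mice marked 8x8 left out (0.105), control mouse 82/83 left out (0.0667), control mouse 49/52 left out (0.112), control mouse 44/46 left out (0.0781), WB1P-Myc mouse 67 left out (0.0598) and WB1P-Myc mouse 23 left out (0.0614).

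Of the partners of TSG-6, Itih5, a heavy chain related to those that TSG-6 transfers, was higher in CD26+ cells of WB1P (904 against 201 CPM, log2 fold change 2.17 ± 0.34, edgeR adjusted p = 5.73e-05) and of WB1P-Myc (944 against 305 CPM, log2 fold change 1.63 ± 0.32, edgeR adjusted p = 0.000732). It fell against control in CD26− cells of WB1P (log2 fold change -2.33, edgeR adjusted p = 3.17e-05) and of WB1P-Myc (log2 fold change -1.73, edgeR adjusted p = 0.000729). Itih2 fell in CD26− cells of WB1P (0.796 against 7.003 CPM, log2 fold change -3.096 ± 0.58, edgeR adjusted p = 0.00028). In WB1P-Myc its call (log2 fold change -1.75, edgeR adjusted p = 0.0174) was lost with control mouse 44/46 left out (0.0931). Ptx3, a pentraxin that crosslinks hyaluronan with TSG-6 and heavy chains, was higher in CD26+ cells of WB1P (2463 against 488 CPM, log2 fold change 2.34 ± 0.50, edgeR adjusted p = 0.00152). In WB1P-Myc Ptx3 was also called (log2 fold change 1.51, edgeR adjusted p = 0.0264), and lost with no low-count filter (0.0635), the 2 mice marked 8x8 left out (0.0813), WB1P-Myc mouse 21 left out (0.135), WB1P-Myc mouse 95 left out (0.0746) and WB1P-Myc mouse 23 left out (0.118). Of the link proteins and aggregating proteoglycans, Hapln3 fell in CD26− cells of WB1P-Myc (2.78 against 9.96 CPM, log2 fold change -1.84 ± 0.41, edgeR adjusted p = 0.00172) and of WB1P (log2 fold change -1.37, edgeR adjusted p = 0.0126), the latter lost with control mouse 82/83 left out (0.181) at a log2 fold change of -0.60. The WB1P-Myc log2 fold change without control mouse 82/83 was -1.08 (edgeR adjusted p = 0.0195). Between CD26 classes Hapln3 was lower in CD26+ cells of control (log2 fold change -2.301, edgeR adjusted p = 0.00735), lost with a fit on only the groups compared (0.234) and control mouse 44/46 left out (0.104). Acan was higher against control in CD26− (log2 fold change 5.01, edgeR adjusted p = 0.0284) and CD26+ cells (log2 fold change 5.91, edgeR adjusted p = 0.026) of WB1P. The first was lost with no low-count filter (0.0711), control mouse 82/83 left out (0.0571), control mouse 49/52 left out (0.108), control mouse 44/46 left out (0.0961), WB1P mouse 10 left out (0.0514) and limma voom with a correlation within mice (0.137), and the second with no low-count filter (0.0696), control mouse 82/83 left out (0.059), control mouse 49/52 left out (0.0876), control mouse 44/46 left out (0.0989), WB1P mouse 35 left out (0.116) and limma voom with a correlation within mice (0.29). Without control mouse 82/83 the Acan log2 fold changes were 5.81 (edgeR adjusted p = 0.0571) in CD26− and 6.703 (edgeR adjusted p = 0.059) in CD26+ cells, and without WB1P mouse 35 the latter was 4.05 (edgeR adjusted p = 0.116).

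Of the 6 proteases that can cleave versican, edgeR called 3 between CD26 classes of each tumor and 0 in control, beside 25.9% (WB1P), 20% (WB1P-Myc) and 4.13% (control) of all genes. In control 0 of the 6 had an unadjusted p under 0.05, DESeq2 and limma voom called 0, and mouse as a fixed block gave 1, beside 11.4% of all genes. Adamts5 was higher in CD26+ cells of WB1P (498 against 92.1 CPM, log2 fold change 2.44 ± 0.43, edgeR adjusted p = 0.000258), as was Adamts15 (196 against 37.6 CPM, log2 fold change 2.38 ± 0.47, edgeR adjusted p = 0.000682). In WB1P-Myc both were called too (log2 fold change 1.52, edgeR adjusted p = 0.00959 and log2 fold change 1.76, edgeR adjusted p = 0.00618). Adamts5 was lost with the 2 mice marked 8x8 left out (0.0937), WB1P-Myc mouse 21 left out (0.0512) and WB1P-Myc mouse 23 left out (0.0555), and Adamts15 with the 2 mice marked 8x8 left out (0.094) and WB1P-Myc mouse 23 left out (0.0537). Adamts9 was lower in CD26+ cells of WB1P (41.8 against 129 CPM, log2 fold change -1.63 ± 0.39, edgeR adjusted p = 0.0041) and of WB1P-Myc (33.9 against 105 CPM, log2 fold change -1.63 ± 0.37, edgeR adjusted p = 0.00251). Adamts15 rose against control in CD26+ cells of WB1P-Myc (log2 fold change 1.98, edgeR adjusted p = 0.00787). In those of WB1P its call (log2 fold change 1.59, edgeR adjusted p = 0.029) was lost with no low-count filter (0.0772), a fit on only the groups compared (0.0535), control mouse 82/83 left out (0.112), control mouse 49/52 left out (0.0912), control mouse 44/46 left out (0.0505), WB1P mouse 14 left out (0.0592), WB1P mouse 35 left out (0.12) and limma voom with a correlation within mice (0.0503). Adamts9 fell in CD26+ cells of WB1P (log2 fold change -1.39, edgeR adjusted p = 0.0169), lost with a fit on only the groups compared (0.0852), control mouse 82/83 left out (0.249) and WB1P mouse 14 left out (0.0593), and of WB1P-Myc (log2 fold change -1.68, edgeR adjusted p = 0.00331), lost with control mouse 82/83 left out (0.0764). Without control mouse 82/83 the log2 fold changes of Adamts9 were -0.62 (edgeR adjusted p = 0.249) and -0.91 (edgeR adjusted p = 0.0764). Adamts5 fell in CD26− cells of WB1P (log2 fold change -1.51, edgeR adjusted p = 0.0124), lost with control mouse 49/52 left out (0.101). The pericyte and smooth muscle sums, higher in CD26− cells of tumors, move against Adamts5 and Adamts15 and with Adamts9, and their part was not tested.

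For the 8 genes with a group mean of at least 10 CPM, the 2 genes outside the pathway lists with the most similar log2 CPM over the 25 sums of 13 mice are given as a description, in which the sums share mice and tissues. They were Mt2 (Pearson 0.927, Spearman 0.912) and Zbtb44 (Pearson 0.907, Spearman 0.939) for Has1. For Has2 they were Fam167a (Pearson 0.884, Spearman 0.815) and Zfand3 (Pearson 0.881, Spearman 0.815) and for Hyal2 Rnaseh2a (Pearson 0.858, Spearman 0.697) and Dand5 (Pearson 0.83, Spearman 0.693). Cemip had Pigs (Pearson 0.94, Spearman 0.79) and Nup93 (Pearson 0.936, Spearman 0.718). Cd44 had Lif (Pearson 0.921, Spearman 0.934) and Rad23b (Pearson 0.916, Spearman 0.865). Vcan had Xpot (Pearson 0.906, Spearman 0.869) and Clint1 (Pearson 0.89, Spearman 0.908). Tnfaip6 had Mt2 (Pearson 0.935, Spearman 0.91) and Myc (Pearson 0.911, Spearman 0.906). Prg4 had Gmds (Pearson 0.947, Spearman 0.955) and Unc93a (Pearson 0.943, Spearman 0.937). Among the 45 pairs of the 10 genes, Has1 and Tnfaip6 had the highest Pearson correlation, 0.955.

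The promoter ends of Has1 and Tnfaip6 are shown because these 2 genes varied together the most over the sums. RefSeq promoters (GRCm38.p6) matched 7 of the 10 genes, without Has2, Has3 and Prg4. Given are 233 bases of Has1 (chr17:17855206-17855438, minus strand) and 146 bases of Tnfaip6 (chr2:52037863-52038008, plus strand), each 5′ to 3′ and ending before the annotated start of the gene. Capitals mark matches to 5 motifs that were chosen after the values were seen and searched on both strands: AP-1 (TGANTCA), CRE (TGACGTCA), CCAAT box (CCAAT), TATA box (TATAAA) and E-box (CACGTG).
Has1: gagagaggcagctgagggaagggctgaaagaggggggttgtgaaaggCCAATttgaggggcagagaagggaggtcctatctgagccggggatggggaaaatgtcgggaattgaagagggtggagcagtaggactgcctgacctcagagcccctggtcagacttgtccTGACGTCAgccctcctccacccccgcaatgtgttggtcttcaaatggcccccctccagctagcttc
Tnfaip6: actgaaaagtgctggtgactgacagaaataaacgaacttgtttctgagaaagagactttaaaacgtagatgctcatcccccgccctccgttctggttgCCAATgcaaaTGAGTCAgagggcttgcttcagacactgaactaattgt
Has1 held 1 CRE and 1 CCAAT box, which 1.32% and 32.4% of 32851 promoter windows of the same length and position held. Tnfaip6 held 1 AP-1 motif and 1 CCAAT box, against 3.86% and 19.4% of windows of its length. All windows were the first bases of each RefSeq promoter, so those of other genes need not end at their annotated start. Bases after the windows were not searched. The letters of the other 3 motifs were not in the respective windows (held by 6.41%, 11.9% and 5.43% of windows for AP-1, TATA box and E-box at the length of Has1, and by 0.347%, 7.14% and 2.79% for CRE, TATA box and E-box at that of Tnfaip6). A match describes letters only.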

How the data were processed

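The authors deposited raw read counts per gene for 44 libraries of sorted mammary fibroblasts; their processing notes name HISAT2 2.2.1 and GRCm38, while the counter, its use of strand and the annotation are not given in the sources used here. Gene IDs matched GENCODE M21 in 55140 of 55486 cases, 54783 with equal coordinates, including all 10 genes described, and exon lengths come from it. A row without a name held 0 counts and was left out. The sequencing notes list 2 Illumina instruments without assigning libraries to either, and no batch is named, so no effect of instrument or batch could be tested. Library totals ran from 5790599 to 15240328 counts (median 12818093). Intervals and floors cover counting error only, and 3 counts is the limit that 0 allows.

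Counts of the En1+ and En1− libraries of 1 mouse and CD26 class were added (25 sums, 6 groups) and tested with edgeR 4.0.16 in R 4.3.3 (filterByExpr, TMM, robust quasi-likelihood fit, Benjamini-Hochberg adjustment over 16601 genes, call under 0.05) for 9 pairwise comparisons and 3 changes of the CD26 difference. The 2 comparisons of En1 classes used single libraries in 12 groups (15584 genes). Neither fit held a term for mouse. Alternatives were DESeq2 1.42.0 size factors, its Wald test, no low-count filter, a fit on only the groups compared, a further limit of an absolute log2 fold change over 2, single libraries, leaving out the 2 mice marked 8x8 or each of the 13 mice, limma 3.58.1 voom with a correlation within mice, and mouse as a fixed block for differences within mice. Pairing was checked on deviations from group means: the 2 classes of a mouse correlated with r of 0.237 to 0.668 (median 0.444, 12 pairs), and voom estimated 0.449. No 2 libraries of a group were copies (lowest chi-square per gene 14.8 over 63 pairs).

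The genes described, the other pathway genes and the marker lists were chosen with earlier results of these data known. Other pathway genes were named where called in at least 1 of the 9 pairwise comparisons and averaging 5 CPM or more in one of the groups compared, at most 3 per role and comparison by absolute log2 fold change. Likeness used log2 CPM with a prior count of 2. Tables and figures were made with Python 3.11.15. The code was tested on simulated data.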

Additional observations from a re-analysis of the deposited data

Results flagged for a closer look

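Cemip in CD26+ cells of WB1P-Myc tumors had 1 sample far from the others of its group: mouse 23 at 521 CPM, with the next highest at 135 CPM, a gap of 0.835 of the range of the 5 mice. It was the 1 group so marked of 40 groups of 4 or 5 mice, and chance marks about 1 in 20 groups. Mouse 23 carries the mark 8x8 in its label.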

How the results depend on the processing

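Of the 27 called results for the 10 genes, 18 kept their call and direction under all alternatives with the same call rule, and 9 lost the call under at least 1. These were 548 values, of which 517 kept the call, 31 lost it and 0 had the opposite sign. The counts of called genes changed by over 1.5 times as follows, and the cause was not tested except where a setting's construction gives it.

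For CD26+ against CD26− cells in control (1 called), DESeq2's Wald test gave 2, a fit on only the groups compared 0, single libraries 2, leaving out the 2 mice marked 8x8 gave 2, limma voom 2 and mouse as a fixed block 3, and leaving out 1 mouse gave 0 to 2. In WB1P (3 called), single libraries gave 8, limma voom 6 and the block 7. In WB1P-Myc (4 called), these gave 7, 7 and 7. The block also called more of all genes: 11.4% in control, 35% in WB1P and 32.1% in WB1P-Myc, against 4.13%, 25.9% and 20%. Shares of all genes called between CD26 classes under the other settings named here, single libraries and limma voom among them, are not given. The counts under those settings therefore cannot be read as particular to the genes described. For WB1P against control in CD26− cells (8 called), leaving out 1 mouse gave 5 to 8. For WB1P-Myc against control in CD26− cells (5 called), single libraries gave 8, leaving out the marked mice 3 and leaving out 1 mouse 2 to 7, and in CD26+ cells (3 called) single libraries gave 5. Counts of all genes in these fits against control are not given here either, so the same limit holds for them. For the change of the CD26 difference from control to WB1P (0 called), single libraries gave 2, limma voom 1 and the block 1, and for that to WB1P-Myc (0 called) limma voom gave 1.

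A further limit of an absolute log2 fold change over 2 drops by construction each smaller difference: it gave 0, 1 and 1 for CD26 classes in control, WB1P and WB1P-Myc, and 3 and 2 for WB1P and WB1P-Myc against control in CD26− cells. The block, which applies to differences within mice, changed no call other than those named with the genes. DESeq2 size factors moved the median of all genes by at most 0.0339 on the log2 scale, and among the 10 genes turned the direction of 1 value, Hyal1 between CD26 classes of control (0.00763 to -0.00782). Control rests on 3 mice, so leaving out 1 leaves 2. By median counts a library Has3 (12, from 1 to 45) and Hyal1 (21, from 6 to 59) were the lowest of the 10 genes. By mean CPM in control it was Cemip, at 6 to 77 counts a sum.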
